A study of Mus musculus with 8 samples.

Results

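The 34 genes described here are members and targets of the Hippo pathway, chosen by name from a list of pathway core genes and of genes known as targets of its effectors YAP and TAZ. All 34 had a row in the deposited table of 55487 genes. By role, 24 were assigned to the core (5 upstream regulators, 7 genes of the kinase cassette, 4 junctional and scaffold genes and 8 effectors) and 10 to the targets.

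The RNA came from muscle stem cells (MuSCs) of C57BL/6 mice, collected 21 days after surgery. The methods describe young males of the substrain C57BL/6 J. In the DEN group a piece of the sciatic nerve of 1 hind limb was cut out, and in the Sham group the nerve was located and left intact. There were 4 libraries per group, each from a different mouse. Hind limb cells were sorted as α7-integrin+ and as Sca-1-, CD11b-, CD31- and CD45-, and their RNA was amplified as full-length cDNA and sequenced without strand. The study set DEN replicate 1 aside as an outlier on a multidimensional scaling plot, so DEN replicates 2 to 4 are compared here with Sham replicates 1 to 4, and DEN replicate 1 is given apart.

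The libraries held 28541080 to 31572843 counts in the 3 DEN samples and 29048620 to 34145854 counts in the 4 Sham samples, and 26627173 counts in DEN replicate 1. All 13 MuSC markers were measured in both groups, given here as counts normalized to library size (CPM), with Pax7 at 143 ± 12.7 CPM in DEN (SD, n = 3) and 126 ± 20.5 CPM in Sham (SD, n = 4). The myogenic factor gene Myf5 (log2 fold change 0.90, edgeR adjusted p = 0.000609) and the cadherin gene Cdh15 (0.57, edgeR adjusted p = 0.0106) were higher in DEN, and Myod1, another myogenic factor gene, was lower (-0.44, edgeR adjusted p = 0.0175), a call lost with all 8 libraries (-0.23, edgeR adjusted p = 0.419). The 13 MuSC markers summed to 11300 to 12380 CPM in DEN and 10040 to 11430 CPM in Sham. The sort gate does not remove every α7-integrin+ cell type. The 13 smooth muscle and pericyte markers summed to 12430 to 13200 CPM in DEN and 12120 to 15690 CPM in Sham, with 1 called higher and 2 called lower. Other marker lists moved with the groups, since 12 of 15 myofiber markers were higher in DEN (sums 1126 to 1206 CPM in DEN and 324 to 524 CPM in Sham), 5 of 8 erythroid markers were lower (1957 to 2965 CPM in DEN and 5070 to 10200 CPM in Sham), and 1 fibro-adipogenic progenitor marker of 12 tested was higher and 4 were lower (5375 to 5820 CPM in DEN and 5995 to 7863 CPM in Sham). Of 12 Schwann cell and glia markers, 4 were higher and 4 lower (752 to 1024 CPM in DEN and 973 to 1321 CPM in Sham). Endothelial markers summed to 733 to 756 CPM in DEN and 676 to 731 CPM in Sham with 1 of 13 called, higher. The macrophage and myeloid markers summed to 6.95 to 131 CPM in DEN and 17.4 to 54.1 CPM in Sham, with 1 of 8 tested called, higher. This was C1qb, which was high only in DEN replicate 2. It had 15.55, 0.444 and 0.246 CPM in DEN replicates 2 to 4 and at most 0.339 CPM in Sham. Neutrophil markers stayed at or under 1.29 CPM in sum in the 7 libraries compared, with Cxcr2, Retnlg, Ly6g and Mpo at 0 in all 8. The 1 neutrophil marker tested, S100a8, was called higher, at 1.08, 0.349 and 0.561 CPM in DEN replicates 2 to 4 and 2.21 CPM in DEN replicate 1, and at 0 in every Sham library (edgeR adjusted p = 0.00633). The lymphocyte markers summed to at most 8.22 CPM, with Cd3d, Cd8a and Nkg7 at 0 and 0 of 3 tested called (1 at an unadjusted p under 0.05). The part of these other cells in the results was not tested, and in bulk RNA fewer cells of a type and less RNA per cell cannot be told apart.

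The Hippo pathway is a kinase cascade that restrains the transcriptional coactivators YAP (gene Yap1) and TAZ (gene Wwtr1). The MST kinases (genes Stk3 and Stk4), with the scaffold Sav1, activate the LATS kinases with their MOB1 partners, and LATS phosphorylation keeps YAP and TAZ out of the nucleus. Unphosphorylated YAP and TAZ enter the nucleus, bind the TEAD transcription factors and drive target genes, and in muscle YAP activity is known to accompany MuSC activation and proliferation. This control acts on the proteins, so transcript levels of the core genes are not a readout of their activity.

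Axl and Lmcd1 were higher in DEN, and F3, Dlc1, Amotl1, Tead1 and Vgll4 were lower. These were 7 of the 33 members tested (21.2%), at an adjusted p under 0.05 by edgeR's quasi-likelihood test with Benjamini-Hochberg adjustment over all genes, beside 10.6% of the 17454 genes tested overall. The core held 0 higher and 3 lower of 23 tested and the targets 2 higher and 2 lower of 10, where 5.29% of all genes were called higher and 5.32% lower. DESeq2 also called 0 core genes higher. At an unadjusted p under 0.05 in either direction, edgeR gave 9 of the 23 core genes and 5 of the 10 targets. The share of all genes at this threshold was 25.4%. The groups did not overlap in normalized CPM for 4 core genes and 5 targets, beside 23.4% of all genes tested. The median log2 fold change of DEN over Sham was 0.07 for the core, 0.07 for the targets and 0.00 for all genes, and the median size of the change irrespective of sign was 0.19 for the core, 0.60 for the targets and 0.19 for all genes. The split between core and targets can be drawn otherwise. With Lats2 and Amotl2 counted as targets and Ptpn14 as core, the core again held 0 higher and 3 lower. The targets then again held 2 higher and 2 lower. The medians here and the sums below use the first assignment. The difference between core and targets was itself not tested, nor was that between the members and all genes. The members were chosen with earlier results of these data known, so their shares are not an independent check.

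**Figure D1:**
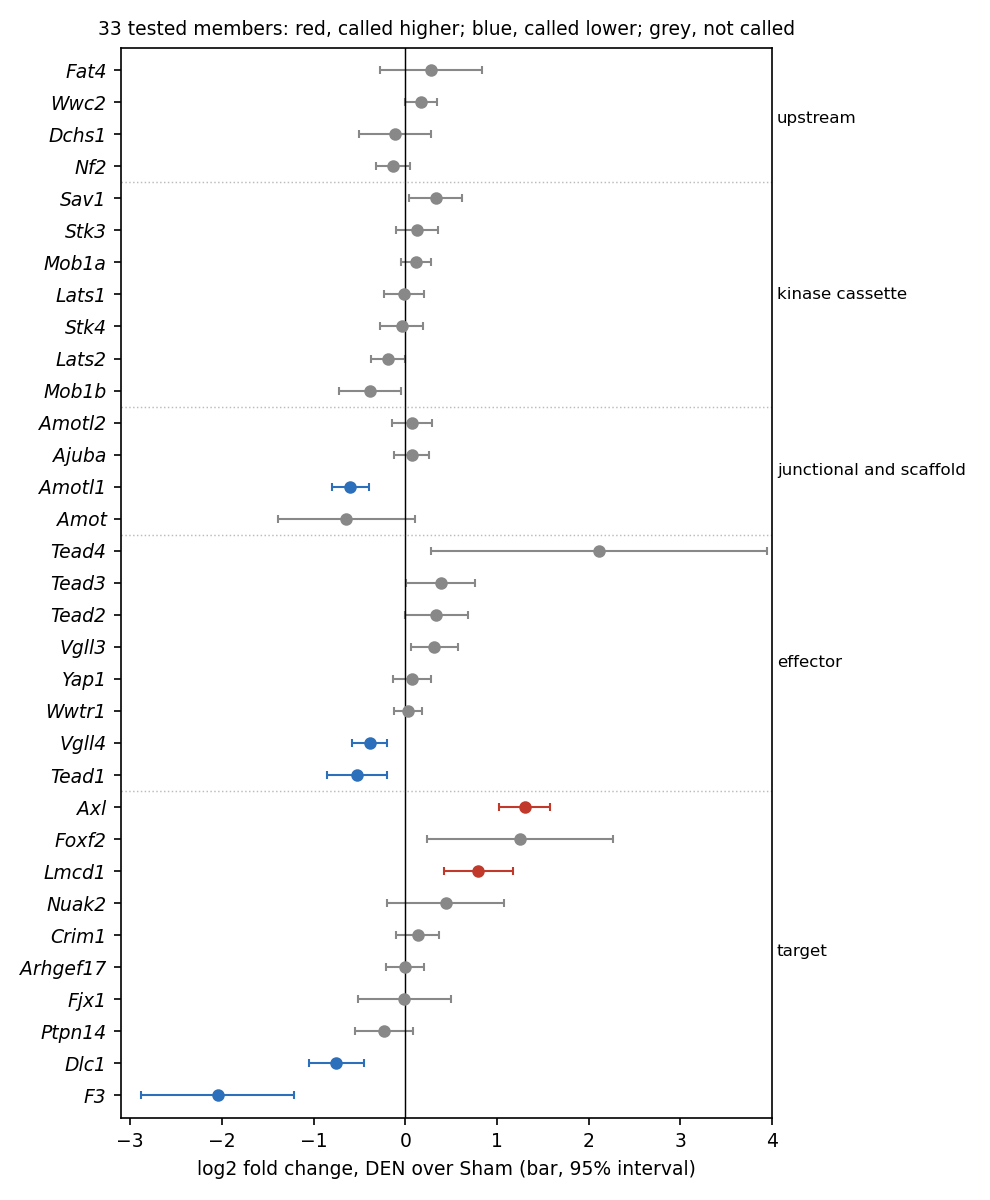
Log2 fold change of DEN over Sham (x axis) for the 33 tested members, grouped by role, with bars for the 95% interval of the fit. The 2 red points (Axl and Lmcd1) are called higher and the 5 blue points lower; the intervals of Yap1 and Wwtr1 lie close to 0, and the widest is that of Tead4, which had few counts.

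Compared per length, as deposited RPKM (reads scaled to library size and gene length), the members spanned a wide range. Wwtr1 (61.0 ± 1.83 RPKM in DEN and 59.9 ± 3.45 RPKM in Sham), Ajuba (44.7 ± 3.54 RPKM in DEN and 42.6 ± 3.38 RPKM in Sham) and Axl (104 ± 9.14 RPKM in DEN and 42.5 ± 7.86 RPKM in Sham) were the most abundant in Sham. Tead4 (0.197 ± 0.130 RPKM in DEN and 0.0455 ± 0.0405 RPKM in Sham) and Wwc1 (0.0509 ± 0.0288 RPKM in DEN and 0.0763 ± 0.0563 RPKM in Sham) were the least abundant (SD, n = 3 DEN and n = 4 Sham). Ajuba and Axl did not differ beyond their spread in Sham, whereas Axl stood above every other member in DEN. Yap1 transcripts were at 6.47 ± 0.466 RPKM in DEN and 6.14 ± 0.616 RPKM in Sham, so TAZ transcripts exceeded YAP transcripts in every library. Among the TEAD genes Tead2 was the most abundant, at 3.45 ± 0.650 RPKM in DEN and 2.73 ± 0.341 RPKM in Sham.

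**Figure D2:**
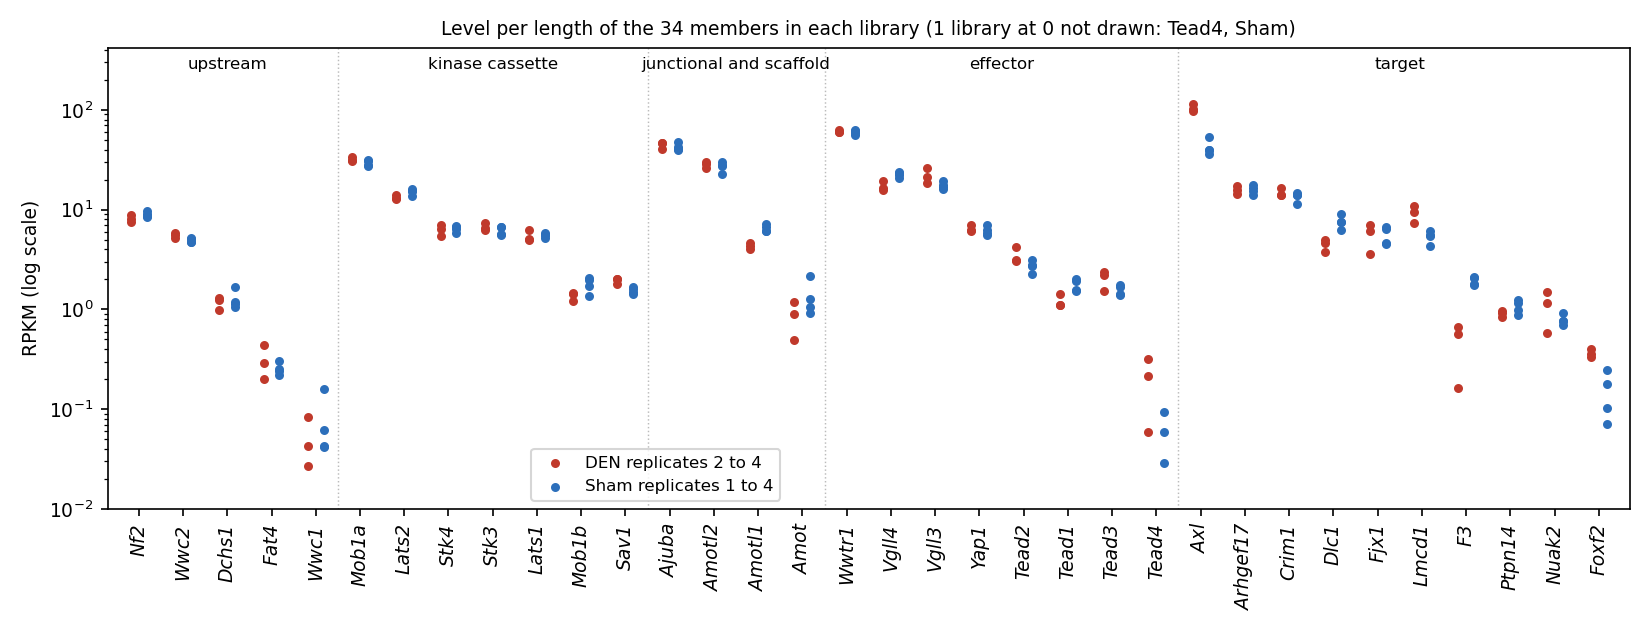
RPKM of each of the 34 members (log scale) in DEN replicates 2 to 4 (red) and Sham replicates 1 to 4 (blue), 1 point per library, ordered within each role by the Sham mean. Wwtr1 leads the effectors at 61.0 RPKM in DEN and 59.9 RPKM in Sham on average, and the red points of Axl lie above all its blue points.

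Upstream, neither edgeR nor DESeq2 called a regulator, where edgeR called 10.6% of all genes. Of the 4 tested, 0 had an unadjusted p under 0.05 by edgeR, beside 25.4% of all genes. With only 4 genes, these counts cannot be told from those shares. Nf2 encodes merlin, a membrane-associated activator of LATS, and averaged 55.8 ± 4.16 CPM in DEN and 61.3 ± 3.74 CPM in Sham (log2 fold change -0.14, edgeR adjusted p = 0.361). Wwc1 encodes KIBRA, a partner of merlin, and had 4, 13 and 6 counts in DEN and 7, 7, 23 and 9 counts in Sham, too few for the count filter. Its paralog Wwc2 was well expressed at 76.6 ± 4.78 CPM in DEN and 68.2 ± 4.08 CPM in Sham. The atypical cadherins Fat4 and Dchs1, a receptor and ligand pair, gave log2 fold changes of 0.28 and -0.11, and with 5.33 ± 2.04 CPM in DEN and 4.39 ± 0.586 CPM in Sham Fat4 was the more variable in DEN.

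None of the 7 genes of the kinase cassette was called by either tool, where edgeR called 10.6% of all genes. By edgeR 3 (Sav1, Mob1b and Lats2) had an unadjusted p under 0.05, beside 25.4% of all genes. The MST kinase genes Stk3 and Stk4 had log2 fold changes of 0.12 (95% interval -0.10 to 0.35) and -0.04 (-0.28 to 0.19), and the LATS kinase genes Lats1 and Lats2 of -0.02 (-0.24 to 0.20) and -0.19 (-0.37 to -0.01, adjusted p = 0.182 over all genes by edgeR). Mob1a, a LATS cofactor, averaged 153 ± 7.42 CPM in DEN and 141 ± 8.97 CPM in Sham. Its paralog Mob1b averaged 20.5 ± 2.03 CPM in DEN and 26.9 ± 4.84 CPM in Sham (log2 fold change -0.39, edgeR adjusted p = 0.137), and it was called lower only when Sham replicate 1 was left out (-0.50, edgeR adjusted p = 0.0322). Sav1, the scaffold that joins MST to LATS, was the 1 cassette gene of 7 without overlap, beside 23.4% of all genes tested. It was at 10.7, 9.55 and 10.6 CPM in DEN and 7.83, 7.54, 8.91 and 8.35 CPM in Sham. With a log2 fold change of 0.33 it did not pass the test (edgeR adjusted p = 0.139). DEN replicate 1, at 8.08 CPM, lay within the Sham range for Sav1. Counting ignored strand, and 25.4% of the Sav1 exon bases overlap Atl1 on the other strand. Of the Lats2 exon bases, 42.4% overlap Gm49361 on the same strand, which was listed at 0 in every library. Whether reads in these shared bases were counted for Lats2 was not tested, which limits its level and its ratio to Lats1.

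Of the junctional and scaffold genes only Amotl1 was called. Amotl1 encodes a motin, a family of junction proteins that bind YAP and hold it in the cytoplasm. Its level was 43.4, 46.4 and 41.1 CPM in DEN and 61.6, 67.4, 73.1 and 62.1 CPM in Sham. Every DEN library thus lay below every Sham library, and DEN replicate 1, at 40.3 CPM, lay lowest. Amotl1 fell by 0.60 on the log2 scale (SE 0.09, edgeR adjusted p = 0.00217) and stayed called when any 1 library was left out. Its relatives Amotl2 (179 ± 12.2 CPM in DEN and 171 ± 19.3 CPM in Sham, log2 fold change 0.07) and Amot (7.24 ± 2.93 CPM in DEN and 11.3 ± 4.65 CPM in Sham, log2 fold change -0.64, edgeR adjusted p = 0.266) overlapped between the groups. So did Ajuba, which encodes a LIM protein that inhibits LATS (163 ± 13.0 CPM in DEN and 155 ± 13.4 CPM in Sham).

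The balance between paralogs was compared as the ratio of RPKM within each library, for 4 pairs. Amotl2 to Amotl1 was 7.01, 5.73 and 7.09 in DEN and 4.89, 4.16, 3.85 and 3.69 in Sham, and 5.69 in DEN replicate 1. The groups did not overlap, with a difference of 0.67 on the log2 scale, and the two-sided exact permutation test gave p = 0.0571, the smallest that 3 against 4 libraries allow (adjusted over the 4 pairs, 0.229). With all 8 libraries the difference was 0.62 and the exact p was 0.0286, again the smallest possible (adjusted, 0.114). Wwtr1 to Yap1 was 9.63, 8.51 and 10.3 in DEN and 9.502, 8.81, 9.99 and 10.9 in Sham, a difference of -0.05 on the log2 scale (exact permutation p = 0.686), and 12.5 in DEN replicate 1. Lats2 to Lats1 and Stk3 to Stk4 differed by -0.16 and 0.17 on the log2 scale (exact permutation p = 0.229 each). No ratio is given for Tead4 to Tead1, because Tead4 had 0 counts in Sham replicate 2.

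**Figure D3:**
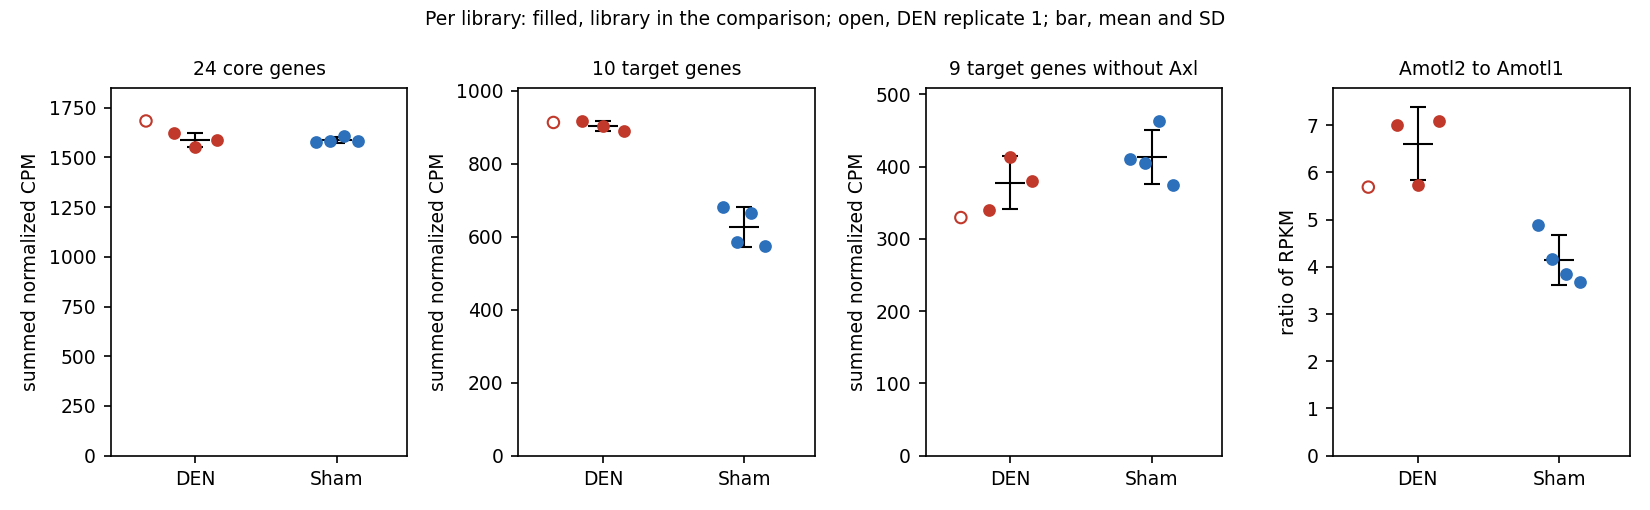
Summed normalized CPM of the 24 core genes, of the 10 targets and of the 9 targets without Axl, and the RPKM ratio of Amotl2 to Amotl1, with 1 point per library (DEN red, Sham blue, DEN replicate 1 open) and bars for mean and SD. The core sums to 1588 CPM in DEN and 1587 CPM in Sham, the targets to 904 CPM in DEN and 627 CPM in Sham, and the DEN points of the ratio all lie above the Sham points.

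Among the effectors, transcripts of the coactivators themselves did not separate the groups. Yap1 had 58.1, 64.9 and 56.9 CPM in DEN and 57.4, 64.2, 52.0 and 53.9 CPM in Sham, a log2 fold change of 0.08 (95% interval -0.13 to 0.28). Wwtr1 had 289, 285 and 302 CPM in DEN and 281, 292, 268 and 304 CPM in Sham, a log2 fold change of 0.03 (95% interval -0.12 to 0.18). Neither interval reached the change of -0.60 measured for Amotl1. In DEN replicate 1 Wwtr1 was higher than in any other library, at 371 CPM, whereas Yap1 was at 57.4 CPM.

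Tead1, which encodes a TEAD factor prominent in muscle, was the 1 TEAD gene called. It had 15.04, 19.5 and 15.2 CPM in DEN and 26.2, 21.3, 27.4 and 20.7 CPM in Sham. The groups did not overlap, although the highest DEN library was close to the lowest Sham library, and DEN replicate 1 was lowest at 12.7 CPM. Tead1 fell by 0.53 on the log2 scale (SE 0.15, edgeR adjusted p = 0.0453), a call that was lost without DEN replicate 2 (edgeR adjusted p = 0.159), DEN replicate 4 (0.142), Sham replicate 1 (0.0867), Sham replicate 2 (0.0565) or Sham replicate 3 (0.103). Tead2 and Tead3 had log2 fold changes of 0.34 and 0.39 (edgeR adjusted p = 0.204 and 0.184). Tead4, which encodes a TEAD factor known from myoblast differentiation, had 23, 36 and 6 counts in DEN and 7, 0, 3 and 10 counts in Sham, with 1 count in DEN replicate 1. These counts overlap, and its log2 fold change of 2.11 had a 95% interval of 0.28 to 3.94 (edgeR adjusted p = 0.138).

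Vgll4 encodes a cofactor that competes with YAP for TEAD. It had 88.5, 104 and 86.0 CPM in DEN and 126, 119, 112 and 128 CPM in Sham. All DEN libraries, with DEN replicate 1 at 105 CPM, lay below all Sham libraries, and Vgll4 fell by 0.39 on the log2 scale (SE 0.09, edgeR adjusted p = 0.0183). The call was lost without DEN replicate 2 (edgeR adjusted p = 0.0790) or DEN replicate 4 (0.0711). Vgll3, another TEAD cofactor, averaged 156 ± 28.5 CPM in DEN and 125 ± 10.5 CPM in Sham and overlapped between groups (log2 fold change 0.32, edgeR adjusted p = 0.117), with DEN replicate 1 above all others at 205 CPM. The promoter of Vgll4 is printed because it holds the letters that TEAD factors recognise, GGAATG, shown in capitals. It runs from 250 bases before to 50 bases after the annotated start (RefSeq, GRCm38.p6, chr6:114969154-114969453, minus strand), and the match begins at -82 relative to the start.
Vgll4: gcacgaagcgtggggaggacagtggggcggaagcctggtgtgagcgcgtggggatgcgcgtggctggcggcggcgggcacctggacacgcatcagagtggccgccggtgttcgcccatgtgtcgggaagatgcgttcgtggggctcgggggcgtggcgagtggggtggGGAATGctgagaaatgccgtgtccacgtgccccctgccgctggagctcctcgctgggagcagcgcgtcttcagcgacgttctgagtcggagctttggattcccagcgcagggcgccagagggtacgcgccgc

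Among the targets the summed level was higher in DEN, at 918, 904 and 890.4 CPM, against 681, 586, 666 and 576 CPM in Sham, and 913 CPM in DEN replicate 1. This separation rested on Axl, since the other 9 targets summed to 378 ± 36.9 CPM in DEN and 413 ± 37.0 CPM in Sham. The core sum was 1588 ± 35.4 CPM in DEN and 1587 ± 14.7 CPM in Sham.

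Axl encodes a receptor tyrosine kinase of the TAM family, bound by Gas6, and is a well known YAP target. It had 578, 491 and 509.9 CPM in DEN and 270.4, 181, 202.5 and 201 CPM in Sham. Each DEN library was well above each Sham library, and DEN replicate 1 was highest at 584 CPM. Axl rose 2.46-fold (log2 fold change 1.30, SE 0.13, edgeR adjusted p = 0.000217) and stayed called when any 1 library was left out, with log2 fold changes of 1.23 to 1.43. Its promoter (RefSeq, GRCm38.p6, chr7:25788684-25788983, minus strand) also holds GGAATG once, in capitals, beginning at -233 relative to the start.
Axl: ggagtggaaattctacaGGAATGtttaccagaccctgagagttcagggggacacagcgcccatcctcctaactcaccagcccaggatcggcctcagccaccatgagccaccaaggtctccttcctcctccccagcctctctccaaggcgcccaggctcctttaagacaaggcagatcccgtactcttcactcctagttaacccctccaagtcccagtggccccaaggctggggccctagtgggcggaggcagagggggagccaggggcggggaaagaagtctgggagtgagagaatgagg

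Lmcd1 encodes a LIM and cysteine-rich domain protein, a transcriptional cofactor known in striated muscle. It had 12.7, 19.0 and 16.5 CPM in DEN and 7.44, 9.32, 9.71 and 10.6 CPM in Sham. The groups did not overlap, with DEN replicate 1 at 12.5 CPM also above the Sham libraries. Lmcd1 rose 1.74-fold (log2 fold change 0.80, SE 0.17, edgeR adjusted p = 0.0142), and the call was lost without DEN replicate 3 (edgeR adjusted p = 0.0599).

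F3 encodes tissue factor, the receptor that starts the extrinsic coagulation cascade, and showed the largest decrease of the 7 called members. It had 1.69, 0.412 and 1.44 CPM in DEN and 5.35, 4.49, 5.22 and 4.41 CPM in Sham, from 50, 13 and 41 counts in DEN and 177, 154, 150 and 130 counts in Sham. The Sham libraries lay close together, the DEN libraries were all lower, and DEN replicate 1 had 0.648 CPM. F3 fell by 2.05 on the log2 scale (SE 0.38, edgeR adjusted p = 0.00729) and stayed called when any 1 library was left out. Its promoter (RefSeq, GRCm38.p6, chr3:121723287-121723586, plus strand) holds no GGAATG but 2 matches to the AP-1 motif TGANTCA, in capitals, beginning at -146 and -135 relative to the start. It was the 1 member promoter with this motif.
F3: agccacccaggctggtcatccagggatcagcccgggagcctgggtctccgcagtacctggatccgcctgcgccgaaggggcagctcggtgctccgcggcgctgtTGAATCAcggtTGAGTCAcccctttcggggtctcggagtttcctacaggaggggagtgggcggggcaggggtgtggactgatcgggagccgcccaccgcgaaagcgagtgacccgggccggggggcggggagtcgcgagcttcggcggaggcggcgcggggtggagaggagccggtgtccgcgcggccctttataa

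Dlc1 encodes a GTPase-activating protein known as a tumour suppressor. It had 55.9, 73.9 and 68.9 CPM in DEN and 91.5, 109, 135 and 112 CPM in Sham. All DEN libraries were lower than all Sham libraries, including DEN replicate 1 at 59.9 CPM. Dlc1 fell by 0.75 on the log2 scale (SE 0.14, edgeR adjusted p = 0.00641) and stayed called when any 1 library was left out.

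**Figure D4:**
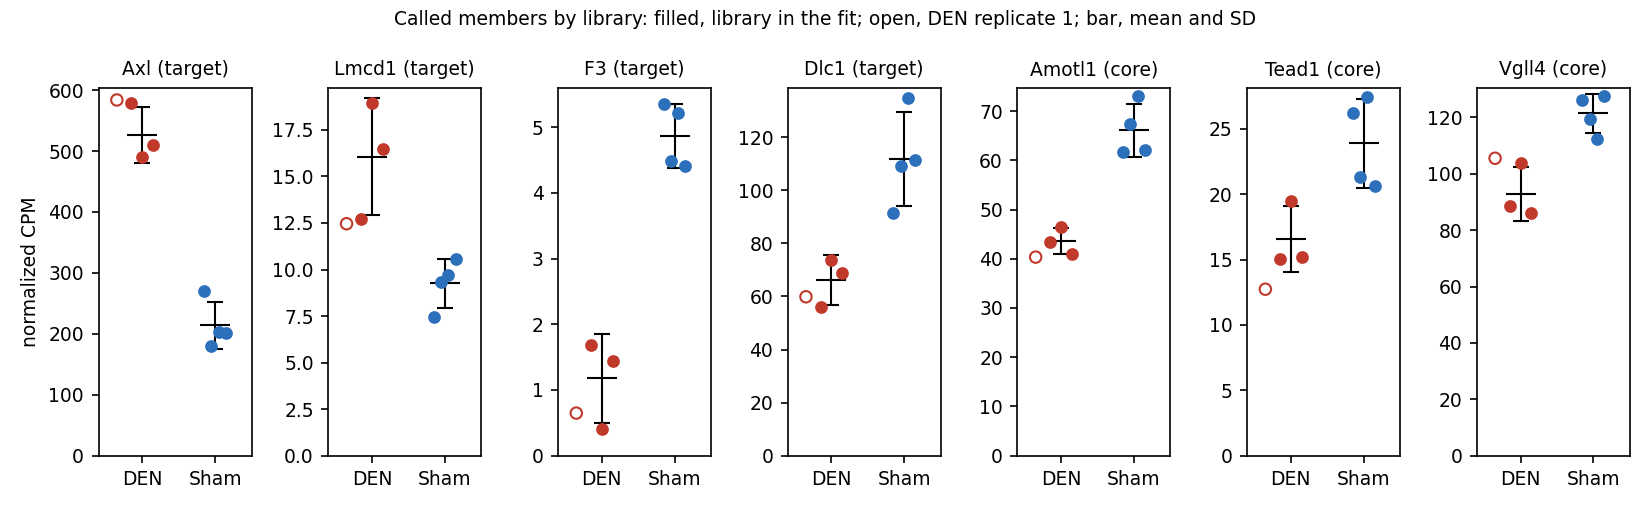
Normalized CPM of the 7 called members in each library (y axes from 0), DEN left of Sham, with bars for mean and SD over DEN replicates 2 to 4 and Sham replicates 1 to 4 and an open point for DEN replicate 1. DEN and Sham points do not overlap in any panel, with Axl at 526 CPM in DEN and 214 CPM in Sham on average, and the highest DEN point of Tead1 lies close to its lowest Sham point.

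The other 6 targets were not called. Foxf2, a forkhead transcription factor gene, had 28, 25 and 24 counts in DEN and 14, 20, 7 and 5 counts in Sham without overlap (log2 fold change 1.25, edgeR adjusted p = 0.114), but DEN replicate 1 held 3 counts and lay below every Sham library in CPM. Nuak2, encoding a stress-activated kinase related to AMPK, averaged 4.21 ± 1.79 CPM in DEN and 3.10 ± 0.368 CPM in Sham. Ptpn14, encoding a phosphatase that binds YAP, lay between 11.4 and 12.8 CPM in DEN and between 11.7 and 16.7 CPM in Sham (log2 fold change -0.23). Crim1, encoding a transmembrane protein that binds BMPs, had a log2 fold change of 0.14, while Arhgef17, encoding a guanine nucleotide exchange factor, and Fjx1, the four-jointed kinase gene that acts on Fat and Dachsous in the fly, were at 0.00 and -0.01. Crim1 and Arhgef17 were well expressed (89.3 ± 9.19 CPM in DEN and 81.3 ± 9.07 CPM in Sham for Crim1), and the 95% interval for Arhgef17 was -0.21 to 0.21.

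For DEN replicate 1, all 7 called members lay beyond every Sham library on the called side. This was not particular to called members, since this library also lay outside the Sham range for many uncalled ones. Among these were Mob1a, Dchs1 and Crim1 above it and Amot, Ajuba and Arhgef17 below it. The share over all genes was not computed. With all 8 libraries, where 11.5% of 17008 genes were called, each of the 7 was called again, with log2 fold changes of 1.34 for Axl, 0.71 for Lmcd1, -2.21 for F3, -0.79 for Dlc1, -0.63 for Amotl1, -0.61 for Tead1 and -0.34 for Vgll4. DESeq2 on the same 7 libraries called them too.

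Other genes of the pathway that are not among the 34 were summarised in the same fit from a pair of lists. The lists were chosen with earlier results of these data known, so their counts are not an independent check. Of 12 other YAP and TAZ targets, 5 were higher and 1 was lower, where 5.29% of all genes were called higher and 5.32% lower. The median log2 fold change of these 12 targets was 0.33, beside -0.001 for all genes. Ccn2, a matricellular protein gene and the most used YAP readout, had 1003, 616 and 703 CPM in DEN and 219, 145, 134 and 114 CPM in Sham, and 655 CPM in DEN replicate 1. All DEN libraries thus lay far above all Sham libraries (log2 fold change 2.34, SE 0.22, edgeR adjusted p = 0.000184). Its relative Ccn1 rose by 1.32 on the log2 scale (327 ± 45.2 CPM in DEN and 131 ± 36.4 CPM in Sham, edgeR adjusted p = 0.00175), Ankrd1, a muscle ankyrin repeat protein gene, by 1.37 (43.7 ± 7.24 CPM in DEN and 16.9 ± 5.85 CPM in Sham, edgeR adjusted p = 0.00584) and Gadd45a, a stress-induced growth arrest gene, by 1.06 (51.2 ± 1.30 CPM in DEN and 24.6 ± 3.13 CPM in Sham, edgeR adjusted p = 0.000273). The other calls, named after their values were seen, were Igfbp3 (log2 fold change 1.35, edgeR adjusted p = 0.0156) and Nt5e (-0.70, edgeR adjusted p = 0.0267). The Igfbp3 call was lost with all 8 libraries (1.06, edgeR adjusted p = 0.128), where DEN replicate 1 at 15.4 CPM lay within the Sham range, without a count filter (0.112) and without DEN replicate 3 (0.0662). The Nt5e call was lost without DEN replicate 2 (edgeR adjusted p = 0.0874) or DEN replicate 3 (0.0917).

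Of 49 other Hippo pathway genes, 42 were tested, 3 were higher and 2 lower, 11.9% in all, near the background, with a median log2 fold change of -0.09. Mob3a, a MOB family member, rose by 0.80 on the log2 scale (99.9 ± 1.66 CPM in DEN and 57.3 ± 2.87 CPM in Sham, edgeR adjusted p = 0.000125). Stk38l, encoding an NDR kinase related to LATS, rose by 0.54 (edgeR adjusted p = 0.00995), and Rassf1, encoding a scaffold for the MST kinases, by 0.46 (edgeR adjusted p = 0.0157), a call lost without DEN replicate 2 (edgeR adjusted p = 0.0590) or DEN replicate 4 (0.0594). Stk26, encoding a kinase of the STRIPAK complexes, fell by 1.09 (1.62 ± 0.205 CPM in DEN and 3.46 ± 0.562 CPM in Sham, edgeR adjusted p = 0.0125), a call lost without DEN replicate 2 (edgeR adjusted p = 0.0523) and with all 8 libraries (-0.68, edgeR adjusted p = 0.188). The other gene called lower was Taok2 (-0.37, edgeR adjusted p = 0.0304), named after its values were seen, and its call was lost without DEN replicate 2 (edgeR adjusted p = 0.124), DEN replicate 3 (0.0545), DEN replicate 4 (0.0675), Sham replicate 3 (0.0718) or Sham replicate 4 (0.0733).

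The promoters were searched for GGAATG on both strands in the 300 bases described above. A RefSeq promoter was matched for 26 of the 34 members, and Dlc1 and Tead1 were among those without one. The motif occurred in 14 of the 26 (53.8%), in 11 of 20 core genes and 3 of 6 targets, beside 16.6% of all genes with a promoter and 14.7% of the genes tested. It occurred in 2 of 8 other YAP and TAZ targets. TGANTCA was searched likewise and can share letters with GGAATG only at its ends. It occurred in 1 of the 26 members (3.85%), beside 8.97% of all genes with a promoter and 6.27% of the genes tested. Matches were in the promoters of both coactivators and of genes that were not called as well as of Axl and Vgll4, while those of Lmcd1 and Amotl1 held neither motif. For some members, among them Amotl1, Lats2, Amot, Amotl2 and Stk4, only starts inside the gene as annotated in GENCODE were searched. Amotl1 was searched at chr9:14614951-14615250 (minus strand) but is annotated up to chr9:14645056, and that start was not searched. Likewise, Lats2 is annotated up to chr14:57758388, beyond the starts searched. A match describes the letters only. The windows below, with 10 bases on each side and on the strand that reads GGAATG, show the match in the 2 coactivator genes (Yap1, chr9:8004722-8004747, minus, and Wwtr1, chr3:57576031-57576056, minus), in the pathway's negative regulators Lats2 (chr14:57746104-57746129, minus), Amotl2 (chr9:102717729-102717754, minus) and Ptpn14 (chr1:189728112-189728137, minus), and in the cofactor Vgll3 (chr16:65815116-65815141, minus).
Yap1: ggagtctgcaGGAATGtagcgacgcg
Wwtr1: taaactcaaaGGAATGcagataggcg
Lats2: tgacgcccgtGGAATGccaacaatgt
Amotl2: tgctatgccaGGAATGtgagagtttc
Ptpn14: gggcgggccaGGAATGcgtccgggga
Vgll3: cagggtagccGGAATGtggggaggcg

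**Figure D5:**
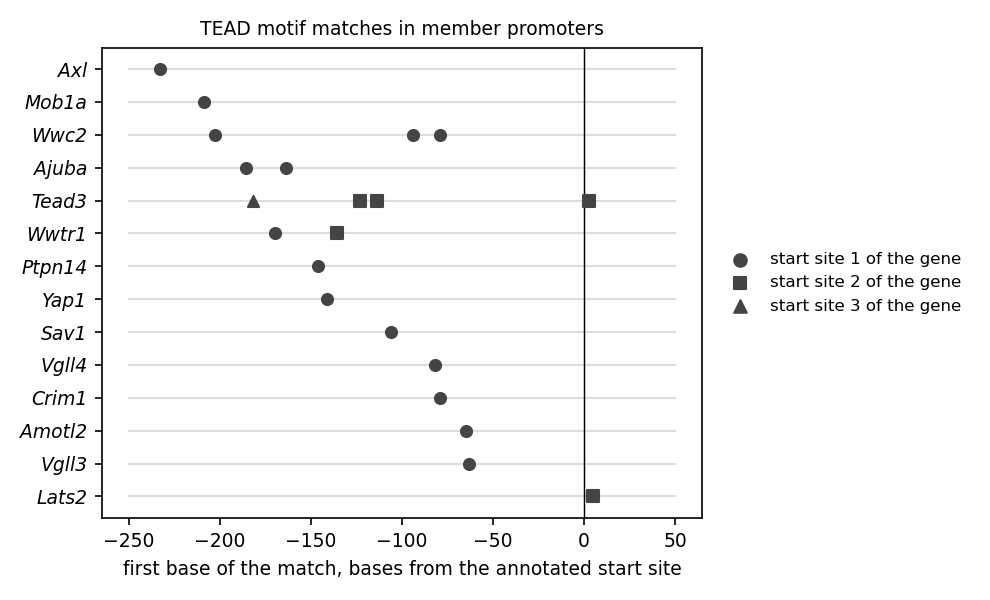
Position of the first base of each GGAATG match, in bases from the annotated start (x axis), in the promoters of the 14 members that hold one, with a shape for each annotated start of the gene. Wwc2 and Tead3 hold several matches, and those of Axl and Vgll4 begin at -233 and -82.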

How the data were processed

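The authors demultiplexed the reads with bcl2fastq 2.20.0.422, trimmed them with cutadapt 2.1, mapped them to GRCm38 with TopHat2 2.1.0 keeping 1 alignment per read, and made the deposited counts per gene with featureCounts 1.6.5 without strand (versions from the submitters' processing notes). The deposited RPM are these counts divided by each library's total, and the deposited RPKM divide RPM by a gene length, which equalled the summed exon length of GENCODE within 5% for all 34 members.

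In R 4.3.3, edgeR 4.0.16 was used to drop low genes (filterByExpr, at least 10 counts in enough libraries and 15 in total), to scale the counts by TMM and to run its quasi-likelihood test with a robust dispersion fit. Of the 28772 genes with a count in the 7 libraries, 17454 were tested, with a biological coefficient of variation of 0.161. Levels are TMM-normalized CPM. Replicates are described by SD, and intervals are 95%. Ratios of RPKM were compared by a two-sided exact permutation test. Promoters are those of RefSeq. Alternatives were DESeq2 1.42.0, size factors, filters, all 8 libraries, each library left out, a replicate block, limma 3.58.1 on log2(RPM + 1) and other assignments of genes to core and targets. The members and lists were chosen with earlier results of these data known. The text names all 34 members and, from each list of other pathway genes, the 4 called genes with the smallest adjusted p.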

Additional observations from a re-analysis of the deposited data

Results flagged for a closer look

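In 66 groups of 4 libraries (33 members, DEN with replicate 1 and Sham), 2 held a library far from the other 3 by Dixon's test, which by chance picks about 1 in 20 groups. Lats1 was at 45.7 CPM in DEN replicate 2 and at 36.5 to 37.3 CPM in the other DEN libraries. Yap1 was at 64.9 CPM in DEN replicate 3 and at 56.9 to 58.1 CPM in the other DEN libraries.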

How the results depend on the processing

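The calls of Axl, F3, Dlc1 and Amotl1 held under every alternative run, and those of Lmcd1 under every one except leaving out DEN replicate 3. Replicate numbers did not pair the samples (correlations of same-numbered deviations -0.01, 0.01 and -0.06), and no DEN library correlated best with the Sham library of its number. With the number as a replicate block, core genes called lower dropped to 1, as Tead1 (log2 fold change -0.48, edgeR adjusted p = 0.0552) and Vgll4 (-0.37, 0.0791) missed the threshold, other Hippo genes called lower were 1 (Stk26 -1.07, 0.0578), and the near-0 values of Dchs1 (0.0483), Arhgef17 (0.0167) and Fjx1 (0.0563) turned sign. With all 8 libraries other Hippo genes called lower were 1, Dchs1 (0.13), Amotl2 (-0.00287) and Ajuba (-0.00288) turned sign, as did the Wwtr1 to Yap1 ratio (0.0520), and the core median was 0.03. Leaving out 1 library at a time gave 1 to 3 core genes lower, 1 to 2 targets higher, 0 to 3 other Hippo genes lower, 2 to 3 higher, 0 to 2 other targets lower, a target median of -0.01 to 0.16, and a log2 Wwtr1 to Yap1 ratio difference of -0.111 to 0.0256. Uncalled genes whose fold change turned sign ranged from -0.0546 to 0.512 for Fat4, -0.187 to 0.0540 for Dchs1, -0.125 to 0.0586 for Stk4, -0.127 to 0.0409 for Lats1, -0.00480 to 0.125 for Amotl2, -0.00305 to 0.0576 for Wwtr1, -0.0731 to 0.0616 for Arhgef17 and -0.204 to 0.227 for Fjx1. The cause was not tested. Tead4, Wwc1 and Foxf2 had few counts, which limits what can be seen.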
